A study of Mus musculus with 4 samples.

Results

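The FoxO and glucocorticoid response genes described here are 10 genes. They are the FoxO factors *Foxo1* and *Foxo3*, the FoxO targets *Depp1*, *Pdk4*, *Trim63* and *Fbxo32*, and the glucocorticoid-induced genes *Sgk1*, *Klf15*, *Zbtb16* and *Fkbp5*. The genes were taken by symbol from the 24454 genes of the count table, and all 10 were among the 14266 genes that passed a filter on low counts, with at least 38 counts in every library. They were chosen by their names and selected on their fold changes between these libraries, which were already known. Their own counts and fold changes in that comparison are therefore given as a description, with no test of their own. Whether they passed the threshold of a fit across all genes is also stated. Nothing is read from such a call being kept or lost under other settings.

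RNA-seq was performed on hearts of mice at postnatal day 7 (P7), as 2 Ctrl libraries (WH7, WH8) and 2 libraries from hearts that overexpress *miR-128* (miR-128OE, WH9 and WH10). Beside miR-128OE mice of other ages the study defines Ctrl as miR-128TetRE mice, while the labels of these libraries say only Ctrl. On that definition both groups carried miR-128TetRE, in which *miR-128* was knocked into the Rosa26 locus behind a tetO promoter. The study's methods give a C57BL/6 background. The miR-128OE mice also carried α-MHC-tTA, a transactivator driven in cardiomyocytes by the α-myosin heavy chain promoter and silenced by doxycycline. With Ctrl so defined, the transactivator and the overexpression come together in this comparison. The doxycycline schedule of these P7 hearts and the number of hearts in a library are not given in the sources used here.

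FoxO proteins are transcription factors that insulin and IGF-1 signaling holds in check. AKT and SGK kinases phosphorylate them, 14-3-3 proteins keep the phosphorylated form in the cytoplasm, and in fasting or disuse they return to the nucleus and induce genes of protein breakdown, autophagy and fuel switching. Glucocorticoids act through the glucocorticoid receptor, a nuclear receptor that FKBP and HSP90 chaperones hold ready and that binds response elements in DNA. Both pathways meet on shared genes of striated muscle, such as the ubiquitin ligases MuRF1 and atrogin-1, and glucocorticoids are known for their part in maturation of the heart around birth.

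The sequence behind the design is that of *miR-128-3p*, which mice encode at 2 loci, chr1:128202404-128202424 on the plus strand and chr9:112118644-112118664 on the minus strand (RefSeq, GRCm38.p6). Both loci give the same 21 bases, and the capitals mark the seed, bases 2 to 8 from the 5′ end.
mmu-miR-128-3p: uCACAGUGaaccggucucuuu
Matches to this seed were looked for in the longest 3′UTR that GENCODE M21 annotates for each gene, as CACTGTG (pairing with bases 2 to 8) or ACTGTGA (pairing with bases 2 to 7 followed by A). Of 13464 tested genes with an annotated 3′UTR, 31% held at least 1 match. Among the 10 genes, 6 held a match, namely *Foxo1*, *Foxo3*, *Klf15*, *Fkbp5*, *Trim63* and *Fbxo32*. No match was found in *Depp1*, *Zbtb16*, *Sgk1* or *Pdk4*, whose 3′UTRs were 479, 2845, 1076 and 2098 bases long. The longest 3′UTRs, 6240 bases in *Foxo1* and 5587 bases in *Fbxo32*, held 3 matches each. That of *Foxo3* was 4490 bases long, and the median over the 13464 genes was 1199 bases. A longer 3′UTR has more room for a match and the share of 31% was not adjusted for length, so nothing is read from 6 of 10 beside it.

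The matches below are those of *Klf15* and *Trim63*, which had higher counts in miR-128OE hearts, of *Fbxo32*, which had lower counts, and of *Foxo1*, shown for its 3 matches. *Foxo3* and *Fkbp5* held 1 match each, which are not printed. Each is written 5′ to 3′ on the strand of its gene, with 8 bases on either side, and the capitals mark the match.
Klf15 chr6:90474717-90474724, plus strand: tagggctgCACTGTGAtgtgagga
Trim63 chr4:134329069-134329075, plus strand: ctccccacCACTGTGtccagcag
Fbxo32 chr15:58180265-58180271, minus strand: gacatgaaCACTGTGgaagaaag
Fbxo32 chr15:58177725-58177731, minus strand: aattttcaACTGTGAttttatgt
Fbxo32 chr15:58177119-58177125, minus strand: aagatcttCACTGTGggaggcat
Foxo1 chr3:52347396-52347402, plus strand: tttgtaatACTGTGAtggtctca
Foxo1 chr3:52352661-52352667, plus strand: gtttgcctCACTGTGcttaattg
Foxo1 chr3:52352791-52352797, plus strand: cttaccatCACTGTGtaaataca
The *Klf15* match pairs with bases 2 to 8 and is also followed by A, which none of the others combined. The last pair of *Foxo1* matches lies beyond the gene end in RefSeq (52350109), in the longer GENCODE 3′UTR. These matches are letters in an annotation and were not tested as sites.

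Promoters were then read in windows of 300 bases, from 250 before to 50 after each start that RefSeq gives (GRCm38.p6). Windows were held for 8 of the 10 genes, 13 windows in all, since *Sgk1* has 6 starts, and there was no entry for *Zbtb16* and *Fbxo32*. On either strand, the FoxO element GTAAACA stood in 1 of the 13 windows and in 3.65% of 32851 windows of all genes. The full palindrome of the glucocorticoid response element, AGAACA and TGTTCT with any 3 bases between them, stood in 1 of the 13 windows and in 0.00913% of all windows, which is 3 windows. An arm of it alone, TGTTCT, stood in 4 of the 13 windows and in 19% of all windows, and it overlaps the palindrome by its letters. Both windows with a full element are shown, as the only ones among these genes to hold either.
Trim63 chr4:134314870-134315169, plus strand: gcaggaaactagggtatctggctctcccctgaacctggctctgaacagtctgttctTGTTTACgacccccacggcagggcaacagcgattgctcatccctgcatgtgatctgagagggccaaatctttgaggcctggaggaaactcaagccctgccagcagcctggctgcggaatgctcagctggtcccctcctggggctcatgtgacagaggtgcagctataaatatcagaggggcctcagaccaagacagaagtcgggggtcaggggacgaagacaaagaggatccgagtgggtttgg
Sgk1 chr10:21993640-21993939, plus strand: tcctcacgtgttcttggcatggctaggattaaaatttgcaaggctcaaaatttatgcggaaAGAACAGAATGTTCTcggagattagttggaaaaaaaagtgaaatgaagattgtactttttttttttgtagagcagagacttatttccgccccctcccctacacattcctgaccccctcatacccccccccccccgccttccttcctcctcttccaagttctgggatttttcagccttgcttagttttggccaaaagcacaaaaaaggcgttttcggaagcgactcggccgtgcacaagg
In *Trim63* the capitals mark the FoxO element, which lies on the minus strand from 194 to 188 bases before the start and directly follows a TGTTCT. That TGTTCT and the bases before it differ from the full palindrome only in its first base. Only exact matches were counted, in these and in all windows. In *Sgk1* the capitals mark the palindrome, from 189 to 175 bases before the fifth of its 6 annotated starts. A match describes the letters of these windows and does not show binding.

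Library totals ranged from 8096870 to 14359838 counts, so 3 counts, taken as the floor of detection, corresponded to 0.209 to 0.371 CPM (a count scaled to library size), which covers counting error only. In the fit by edgeR across all 14266 genes, 31.5% of genes differed between miR-128OE and Ctrl hearts at an adjusted p under 0.05, 16.5% higher and 15.0% lower, and the log2 fold change had a median of -0.01 over all tested genes. Since whole hearts were measured, more cells of a type and more RNA per cell cannot be told apart. The genotype coincided with the sex of the mice: *Xist* was counted 14543 and 11339 times in WH7 and WH8 but 94 and 132 times in WH9 and WH10, and the Y-linked *Ddx3y* had 13 and 7 against 1442 and 1768. Effects of genotype and of sex therefore cannot be told apart in any value below. The Ctrl libraries differed widely in atrial genes, with 71930 normalized counts summed over 7 atrial markers in WH7 and 9084 in WH8. The miR-128OE hearts lay between them, at 27000 and 34300. Fold changes of the 10 genes without WH8 and without WH7 are given below. Mature *miR-128* was not measured here, and the rows of its precursors held 0 counts for *Mir128-1* in every library and 0, 0, 2 and 10 counts for *Mir128-2* in WH7, WH8, WH9 and WH10.

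Of the 10 genes, 6 had higher counts in miR-128OE hearts, 1 had lower counts, and 3 had overlapping counts in the groups. *Depp1* and *Zbtb16* stood at more than 3 times their Ctrl level and *Sgk1* at more than 2 times, while *Klf15*, *Pdk4* and *Trim63* were 1.48 to 1.61-fold higher and *Fbxo32* was at 0.749 of its Ctrl level. By the threshold of the fit across all genes, 6 of the 10 were called higher, beside 16.5% of all genes, and 1 was called lower, beside 15.0%. The groups did not overlap for 7 of the 10 genes, beside 68.1% of all genes tested. Since the genes were chosen with this comparison known, nothing is read from these counts. Their median log2 fold change was 0.59.

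**Figure D1:**
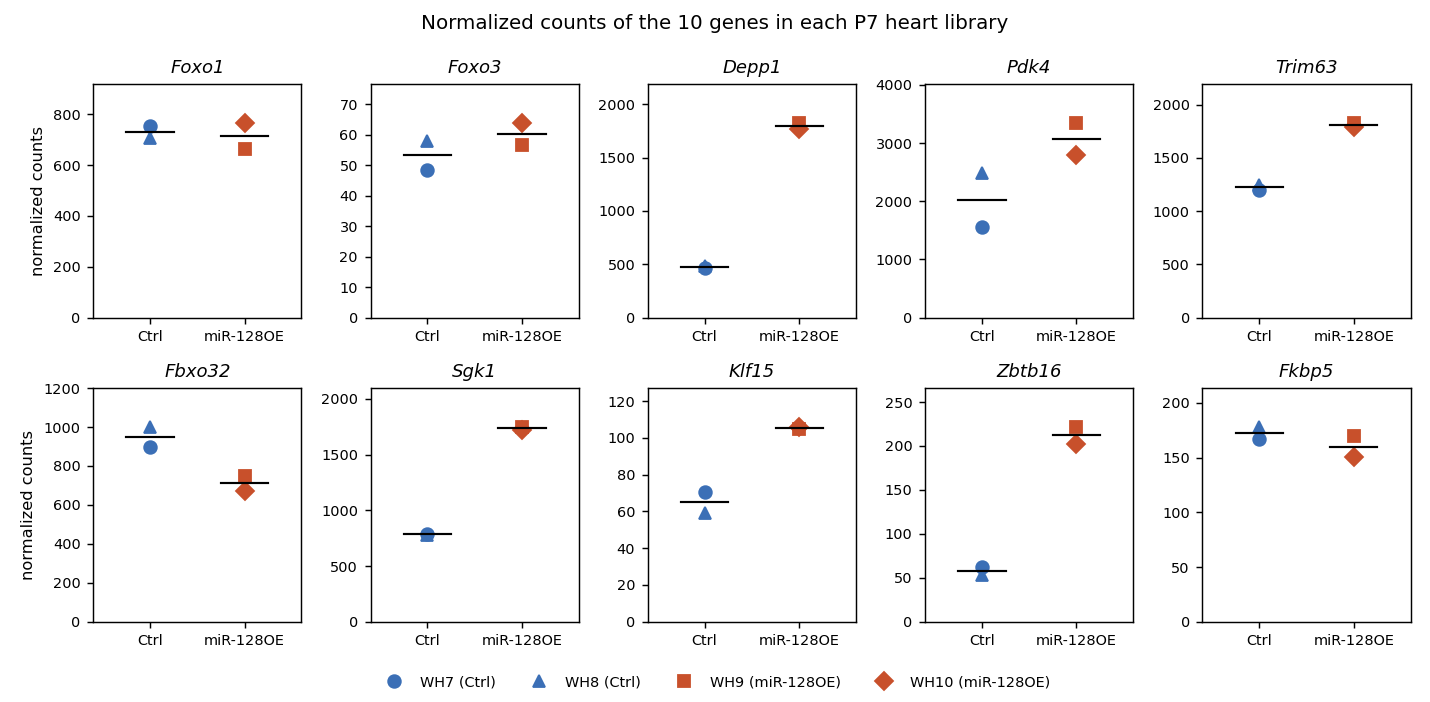
Normalized counts (vertical axes, each from 0) of the 10 genes in the 4 P7 heart libraries, with Ctrl libraries in blue, miR-128OE libraries in orange and a bar at the mean of each group. Depp1, Zbtb16 and Sgk1 sit far above their Ctrl points in both miR-128OE libraries, Fbxo32 sits below them, and the points of Foxo1, Foxo3 and Fkbp5 overlap between the groups.

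The counts of the FoxO factors themselves overlapped between the groups. *Foxo1* (chromosome 3, 52268337 to 52350109), which responds to insulin in liver and muscle, had 753 and 707 normalized counts in WH7 and WH8 and 662 and 767 in WH9 and WH10. Its highest and its lowest library were both from miR-128OE hearts. The log2 fold change was -0.03 with a standard error of 0.10 and a 95% interval from -0.25 to 0.19. *Foxo3* (chromosome 10, 42181845 to 42276695), the factor best known for inducing atrophy genes in muscle, was scarce, with 48.5 and 57.95 normalized counts in Ctrl and 56.4 and 63.9 in miR-128OE hearts. The groups overlapped, and the log2 fold change of 0.19 (standard error 0.25) had a 95% interval from -0.37 to 0.76, which leaves room for a change of either sign.

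The other FoxO genes, which were not among the 10, are given for comparison. *Foxo4* had 475 and 471 normalized counts in Ctrl and 548.5 and 511 in miR-128OE hearts. It differed by 0.16 on the log2 scale (standard error 0.10, Benjamini-Hochberg adjusted p = 0.224 from the quasi-likelihood test of edgeR). *Foxo6*, the member best known from brain, rose from 62.2 and 28.3 normalized counts to 141 and 130, by 1.51 on the log2 scale (standard error 0.29, adjusted p = 0.00451, edgeR). The Ctrl libraries differed from each other by more than the miR-128OE libraries did, and its log2 fold change was 2.25 without WH7 and 1.12 without WH8. *Foxo6* was the only FoxO gene of the 4 past the threshold.

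FoxO proteins are controlled mostly after translation, and the transcripts of their regulators are given here. Of 23 tested insulin, PI3K and AKT genes, *Sgk1* among them, 4 were higher, 3 lower, and the median log2 fold change was 0.10. Without *Sgk1*, 3 of 22 were higher, 3 lower, and the median was 0.03. Over all genes tested, 16.5% were higher and 15.0% lower, and these shares also stand beside the list counts below. The counts of this list lie near those shares, so nothing is read from them. Besides *Sgk1*, the higher genes were *Irs1*, the docking protein below the insulin receptor (0.60, adjusted p = 0.00213, edgeR), and the kinases *Akt1* (0.51, adjusted p = 0.00131) and *Akt2* (0.38, adjusted p = 0.00635). Lower were the receptor *Igf1r* (-0.51, adjusted p = 0.00125, edgeR), the catalytic subunit *Pik3ca* (-0.35, adjusted p = 0.009) and the lipid phosphatase *Inpp5d* (-0.55, adjusted p = 0.022). The insulin receptor *Insr* was at -0.24 (adjusted p = 0.107, edgeR), and *Irs2*, itself a FoxO target, had 0.37 (adjusted p = 0.37). The call of *Akt2* was lost without WH9 (0.35, adjusted p = 0.0966, edgeR), that of *Pik3ca* without WH9 (-0.36, adjusted p = 0.1) or WH10 (-0.32, adjusted p = 0.116), and that of *Inpp5d* without WH8 (-0.45), WH9 (-0.65) or WH10 (-0.42) and with the DESeq2 test (adjusted p = 0.0698). *Insr* passed the threshold with total counts (-0.34, adjusted p = 0.0347, edgeR), without a filter (-0.23, adjusted p = 0.0437) and without WH7.

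Of 22 genes for proteins that bind, modify or export FoxO, 7 were higher, 4 lower, and the median log2 fold change was 0.12. The 14-3-3 genes *Ywhag* (0.75, adjusted p = 0.000458, edgeR) and *Ywhaz* (0.47, adjusted p = 0.00369) were higher, as was the stress kinase *Mapk8* (0.48, adjusted p = 0.0071). A further 14-3-3 gene, *Sfn*, fell by 2.57 on the log2 scale (adjusted p = 0.00268, edgeR), from 53 and 39 counts to 4 and 15. The acetyltransferase *Crebbp* (-0.66, adjusted p = 0.00096, edgeR) and the export receptor *Xpo1* (-0.45, adjusted p = 0.00336) were also lower. Without WH9, *Ywhaz* (0.45), *Mapk8* (0.41) and *Xpo1* (-0.38) missed the threshold (adjusted p = 0.0669, 0.0992 and 0.0811, edgeR).

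*Depp1* differed most of the 10 genes. It lies on chromosome 6 (116650684 to 116652847) and encodes an autophagy-linked protein named for its induction in decidua by progesterone, and FoxO3 is known to bind and activate it. *Depp1* had 505 and 340 counts in WH7 and WH8 and 1847 and 2098 in WH9 and WH10. After normalization these were 462 and 480.5 in Ctrl and 1829 and 1765 in miR-128OE hearts, or 471 ± 13.2 and 1797 ± 45.3 (SD, n = 2). The groups lay far apart and the libraries of each group close together. Its fold was 3.82 and its log2 fold change 1.93 (standard error 0.08), the 68th highest of all genes tested, and it stayed between 1.83 and 1.97 under every alternative tried. The gene shares its locus with *Rassf4*, which had 206, 165, 154 and 185 counts in the same order of libraries. Whether counting used the strand is not stated, and the part of reads from the shared locus in the *Depp1* value was not tested.

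*Pdk4* and the ubiquitin ligases *Trim63* and *Fbxo32* are classical FoxO targets of muscle. *Pdk4* (chromosome 6, 5483351 to 5496278) encodes a kinase that switches off pyruvate dehydrogenase when fatty acids are burned. Its normalized counts were 1550 in WH7, 2487 in WH8, 3352 in WH9 and 2797 in WH10. Both miR-128OE libraries were higher than both Ctrl libraries, but WH8 was closer to WH10 than to WH7, and the SD of 663 in Ctrl was the widest of the 10 genes. The log2 fold change was 0.61 (standard error 0.18). It depended on the Ctrl library used, being 0.31 without WH7 and 0.99 without WH8, and the call was lost with total counts (0.51), with the DESeq2 test and without WH9 (0.49).

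*Trim63* (chromosome 4, 134315120 to 134329629), which encodes MuRF1, a ligase of sarcomere proteins, had 1199 and 1247 normalized counts in Ctrl and 1832 and 1793 in miR-128OE hearts. The libraries of a group differed by little, and the groups were well separated. The log2 fold change was 0.57 (standard error 0.08) and ranged from 0.47 to 0.60 under the alternatives. Its call was lost where a 1.5-fold change was required. *Fbxo32* (chromosome 15, 58175879 to 58214892), which encodes atrogin-1, the other ligase that marks muscle atrophy, went the other way, with 899 and 1001 normalized counts in Ctrl and 747 and 674 in miR-128OE hearts. The difference was -0.42 on the log2 scale (standard error 0.09), and values ran between -0.52 and -0.33 under the alternatives. Its call was lost without WH9 (-0.48) or WH10 (-0.33), and where a 1.5-fold change was required.

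The ratio of *Trim63* to *Fbxo32* counts within a library, which does not depend on scaling between libraries, was 1.33 in WH7 and 1.25 in WH8. In WH9 and WH10 it was 2.45 and 2.66. The 2 genes were chosen and paired with their opposite fold changes known, so nothing is read from this separation.

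Around these ligases, 8 of 20 tested muscle ubiquitin ligases and ubiquitin genes were higher, 2 lower, and the median log2 fold change was 0.24. Without *Trim63* and *Fbxo32*, which are in the list, 7 of 18 were higher, 1 lower, and the median was 0.24. *Trim54*, which encodes MuRF3, rose from 231 and 177 normalized counts to 337 and 382 (log2 fold change 0.80, standard error 0.15, adjusted p = 0.00381, edgeR). *Trim55*, which encodes MuRF2, had 560 and 661 in Ctrl and 606 and 547.5 in miR-128OE hearts (log2 fold change -0.08, adjusted p = 0.625, edgeR), and no difference between the 3 MuRF paralogs was tested. The ratio of *Trim63* to *Trim55* counts was 2.14 in WH7 and 1.89 in WH8, and 3.02 in WH9 and 3.28 in WH10. Nothing is read from this ratio either, since *Trim63* was chosen with its fold change known. The ubiquitin-conjugating enzymes *Ube2b* (0.63, adjusted p = 0.000458, edgeR) and *Ube2g1* (0.64, adjusted p = 0.000684) were higher. *Fbxo21*, a further atrophy-linked ligase, was at -0.28 with an adjusted p of 0.0493 (edgeR), and this call was lost whichever library was left out (log2 fold changes from -0.33 to -0.21), with DESeq2 size factors or its test, without a filter and with the offset for GC content and length.

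The other genes of pyruvate dehydrogenase control are given beside *Pdk4*. Of 11 tested genes for pyruvate dehydrogenase and its kinases and phosphatases, 8 were higher, 0 lower, and the median log2 fold change was 0.60. Without *Pdk4*, which is in the list, 7 of 10 were higher, 0 lower, and the median was 0.60. *Pdk1* (0.70, adjusted p = 0.000625, edgeR) and *Pdk2* (0.47, adjusted p = 0.00258) rose, while *Pdk3* was at 0.33 with an adjusted p of 0.0923. The subunits *Pdha1* (0.71, adjusted p = 0.000505, edgeR) and *Pdhx* (0.70, adjusted p = 0.00119) rose too. The ratio of *Pdk4* to *Pdk2* counts was 1.14 and 1.72 in Ctrl and 1.65 and 1.49 in miR-128OE hearts, so both miR-128OE values lay between the Ctrl values. *Pdk2* was no longer past the threshold without WH9 (0.43, adjusted p = 0.0509, edgeR).

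FoxO targets as a list moved in both directions. Of 49 tested targets, 16 were higher, 5 lower, and the median log2 fold change was 0.25. Without *Depp1*, *Pdk4*, *Trim63*, *Fbxo32* and *Klf15*, which are in the list, 12 of 44 were higher, 4 lower, and the median was 0.20. Higher targets were *Bnip3*, a mitophagy receptor, at 492 and 551 normalized counts in Ctrl and 1052 and 1051 in miR-128OE hearts (log2 fold change 1.02, adjusted p = 0.000107, edgeR), and *Ccng1*, a cyclin also induced by p53 (0.97, adjusted p = 0.000112). *Pck1*, the rate-limiting enzyme of gluconeogenesis, rose by 2.0 (adjusted p = 0.0108, edgeR), from 13 and 3 counts to 41 and 36, and this call was lost without WH9 (1.80, adjusted p = 0.104). The death gene *Bcl2l11* (-0.38, adjusted p = 0.0229, edgeR), the stress gene *Sesn1* (-0.35, adjusted p = 0.018) and *Pik3ca* were lower. These 3 calls were lost without WH9 or WH10, where the log2 fold changes of *Bcl2l11* were -0.36 and -0.38 and those of *Sesn1* were -0.29 and -0.38. With the DESeq2 test the adjusted p was 0.0983 for *Bcl2l11* and 0.0709 for *Sesn1*, and with the offset for GC content and length edgeR gave 0.0553 for *Bcl2l11*. The count of lower targets ran from 0 without WH9 or WH10 to 9 without WH7.

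Autophagy genes, which FoxO3 is known to induce in muscle, gave 8 higher and 1 lower of 24 tested, with a median log2 fold change of 0.16. *Map1lc3a*, which encodes a protein of the autophagosome membrane, rose from 3657 and 3492 normalized counts to 7295 and 7158 (1.02, adjusted p = 6.85e-05, edgeR), *Bnip3* is in this list too, and *Wipi1* rose by 0.57 (adjusted p = 0.00141). The lower gene was *Rb1cc1*, which encodes a scaffold of the starting complex (-0.39, adjusted p = 0.00676, edgeR), and it was no longer past the threshold without WH9 (-0.41) or WH10 (-0.34).

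**Figure D2:**
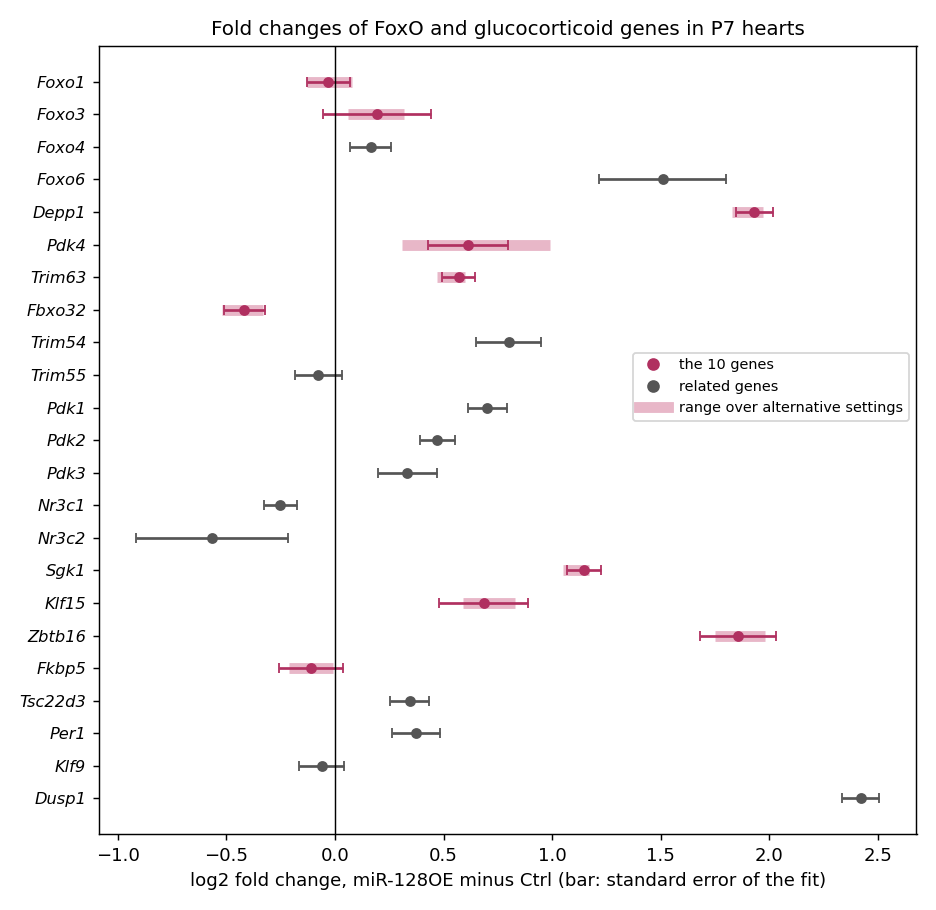
Log2 fold change of miR-128OE over Ctrl hearts (horizontal axis) for the 10 genes in red and for related genes in grey, with the standard error of the edgeR fit as bars and, for the 10 genes, the range over 13 alternative settings as a pale band. Depp1 at 1.93, Zbtb16 at 1.85 and Sgk1 at 1.15 lie far to the right of 0, Fbxo32 lies to the left of 0, and the band of Pdk4 is the widest of the 10.

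Turning to the glucocorticoid pathway, no gene for the receptors or their chaperones was called higher. *Nr3c1*, the glucocorticoid receptor, had 1829 and 1764 normalized counts in Ctrl and 1530 and 1490 in miR-128OE hearts (log2 fold change -0.25, standard error 0.08, adjusted p = 0.032, edgeR). The groups did not overlap, but the call was lost without WH9 (-0.26, adjusted p = 0.217, edgeR), without WH10 (-0.22, adjusted p = 0.263), with the DESeq2 test (adjusted p = 0.0967) and with an offset for GC content and length (-0.18, adjusted p = 0.114). *Nr3c2*, the mineralocorticoid receptor, was counted 40 and 24 times in Ctrl libraries against 30 and 22 times in miR-128OE libraries (-0.57, adjusted p = 0.245, edgeR). The enzymes that activate and inactivate corticosterone were near the limit of measurement, with 8 to 20 counts of *Hsd11b1* (-0.97, adjusted p = 0.141, edgeR) and 3 to 14 counts of *Hsd11b2* (0.21, adjusted p = 0.814). Of the 20 genes in this list, *Fkbp5* among them, 2 were higher, 4 lower, and the median log2 fold change was -0.03. Without *Fkbp5*, 2 of 19 were higher, 4 lower, and the median was 0.06. The mediator subunit *Med1* was higher (0.52, adjusted p = 0.00218, edgeR), and lower beside *Nr3c1* were the corepressor *Ncor1* (-0.61, adjusted p = 0.000618), the coactivator *Ncoa3* (-0.48, adjusted p = 0.00605) and the chaperone *Hsp90aa1* (-0.28, adjusted p = 0.0294). Without WH9 the adjusted p was 0.0896 for *Ncoa3* (-0.42) and 0.255 for *Hsp90aa1* (-0.26), and without WH10 it was 0.221 for *Hsp90aa1* (-0.27). With the offset for GC content and length it was 0.0543 for *Hsp90aa1* (-0.24, edgeR).

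Of the 4 glucocorticoid-induced genes among the 10, 3 had higher counts in miR-128OE hearts, and the counts of *Fkbp5* overlapped between the groups. The groups did not overlap for 68.1% of all genes tested, and these 4 were chosen with this comparison known. Nothing is therefore read from 3 of 4. *Fkbp5* (chromosome 17, 28398753 to 28486149) encodes a co-chaperone that damps the receptor, and its intronic response elements make it a standard reporter of glucocorticoid action. Its normalized counts were 167 and 178 in Ctrl and 169 and 151 in miR-128OE hearts. The groups overlapped, and the log2 fold change was -0.11 (standard error 0.15, 95% interval from -0.45 to 0.23).

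*Sgk1* (chromosome 10, 21882184 to 21999903) encodes a kinase of the AKT family that responds to serum and to steroids and also phosphorylates FoxO3. It had 861 and 552 counts in WH7 and WH8 and 1766 and 2049 in WH9 and WH10, or 787 and 780 normalized counts in Ctrl and 1749 and 1723 in miR-128OE hearts. The means were 784 ± 5.09 and 1736 ± 17.8 (SD, n = 2), the closest agreement between Ctrl libraries among the 10 genes. The log2 fold change was 1.15 (standard error 0.08) and stayed between 1.05 and 1.17 under the alternatives. Its promoter window with the glucocorticoid palindrome is printed above, and gene counts do not tell which of its starts was used.

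*Zbtb16* (chromosome 9, 48651797 to 48836225) encodes the zinc finger repressor PLZF, a gene that glucocorticoids induce in many cell types. From 68 and 38 counts in Ctrl it went to 224 and 241 in miR-128OE hearts, which was 62.2 and 53.7 against 222 and 203 after normalization. The lowest miR-128OE library had more than 3 times the highest Ctrl library. The log2 fold change was 1.85 (standard error 0.18), the 74th highest of all genes tested, with a range of 1.75 to 1.98 over the alternatives. *Klf15* (chromosome 6, 90461043 to 90491803) encodes a factor of amino acid and lipid use that glucocorticoids induce in heart and muscle, and it is in the lists of targets of both pathways. It had 70.4 and 59.4 normalized counts in Ctrl and 105 and 106 in miR-128OE hearts. The groups were separate, the log2 fold change was 0.69 (standard error 0.21), and at these low counts it ranged from 0.59 to 0.83. The call was lost with total counts (0.59), with the DESeq2 test, and without WH8 (0.59), WH9 (0.71) or WH10 (0.70).

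Ratios of counts within each library put these genes on a scale of their own. *Sgk1* to *Fkbp5* was 4.71 and 4.38 in Ctrl and 10.3 and 11.4 in miR-128OE hearts. *Zbtb16* to *Fkbp5* was 0.372 and 0.302 in Ctrl and 1.31 and 1.35 in miR-128OE hearts. For *Depp1* to *Foxo1* the values were 0.614 and 0.68 in Ctrl and 2.76 and 2.3 in miR-128OE hearts. In each of these ratios the libraries of a group were close and the groups did not overlap. These genes were chosen and paired with their fold changes known, so nothing is read from this separation.

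Among the other glucocorticoid targets the values ran from strongly higher to lower. Of 47 tested targets, 21 were higher, 7 lower, and the median log2 fold change was 0.33. Without *Fkbp5*, *Zbtb16*, *Sgk1*, *Klf15* and *Pdk4*, 17 of 42 were higher, 7 lower, and the median was 0.22. The standard early targets were mixed, as *Tsc22d3*, which encodes GILZ, was higher by 0.34 (log2 scale, standard error 0.09, adjusted p = 0.0171, edgeR), *Per1* had 0.37 (standard error 0.11, adjusted p = 0.029) and *Klf9* had -0.06 (standard error 0.10, adjusted p = 0.685). The calls of *Tsc22d3* and *Per1* were lost with total counts (0.24 and 0.27) and without WH9 (0.26 and 0.27), and that of *Per1* also with the DESeq2 test.

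Higher targets included *Dusp1*, a phosphatase of MAP kinases, at 588 and 541 normalized counts in Ctrl and 3044 and 3023 in miR-128OE hearts (2.42, adjusted p = 4.85e-07, edgeR). The sodium pump subunit *Atp1b1* (1.29, adjusted p = 7.08e-05, edgeR) and the small GTPase *Arl4d* (1.26, adjusted p = 0.00206) were also higher. Lower were *Galnt15*, a glycosyltransferase (-1.29, adjusted p = 0.0139, edgeR), the arrestin-domain gene *Arrdc2* (-0.95, adjusted p = 0.00721) and *Lcn2*, an acute-phase lipocalin (-0.94, adjusted p = 0.0306). The call of *Galnt15* was lost without WH10 (-0.95, adjusted p = 0.134, edgeR) and that of *Arrdc2* without WH9 (-0.87, adjusted p = 0.0623), while that of *Lcn2* was lost whichever library was left out (-0.97 to -0.90) and with the DESeq2 test. *Dusp1* is also an immediate-early gene.

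Genes that KLF15 regulates in muscle and heart gave 5 higher and 3 lower of 13 tested, with a median log2 fold change of 0.23. Higher were the glucose transporter *Slc2a4* (0.91, adjusted p = 0.000107, edgeR) and the branched-chain amino acid enzymes *Hibadh* (0.82, adjusted p = 0.000265) and *Bckdha* (0.75, adjusted p = 0.000319). Lower were *Kcnip2*, the potassium channel subunit that KLF15 controls in the circadian rhythm of the ventricle (-0.81, adjusted p = 0.00122, edgeR), the proline enzyme *Prodh* (-0.75, adjusted p = 0.0198) and *Cpt1b*, the carnitine transferase of fatty acid entry (-0.71, adjusted p = 0.0423). Both *Prodh* and *Cpt1b* lost their calls without WH8 (-0.57 and -0.42), WH9 (-0.69 and -0.66) or WH10 (-0.79 and -0.75), and with the DESeq2 test (adjusted p = 0.0529 and 0.093).

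**Figure D3:**
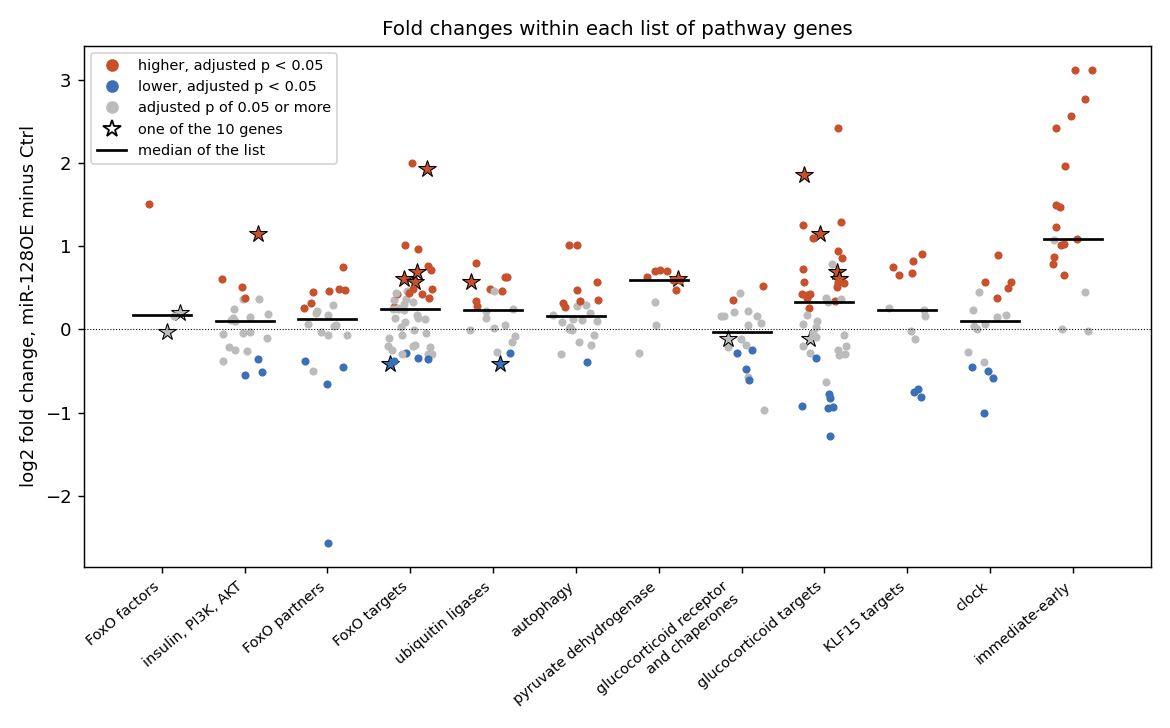
Log2 fold change (vertical axis) of every tested gene in 12 lists of pathway genes, with genes past an adjusted p of 0.05 (edgeR) in orange when higher and blue when lower, the rest in grey, stars for the 10 genes and a bar at each median. The immediate-early genes lie highest with a median of 1.09, and pyruvate dehydrogenase genes have a median of 0.60. The receptor and chaperone genes of the glucocorticoid pathway have one of -0.03, with Fkbp5 included.

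Per length of transcript, the 10 genes spanned a wide range of levels. In Ctrl hearts the mean RPKM, CPM per kilobase of the longest GENCODE M21 transcript with CPM from library totals, descended in the order *Trim63* (56.9), *Pdk4* (50.8), *Depp1* (30.9), *Sgk1* (22.2), *Fbxo32* (12.0), *Foxo1* (7.40), *Fkbp5* (3.93), *Klf15* (2.30), *Zbtb16* (0.996) and *Foxo3* (0.682). *Trim63* and *Pdk4* did not differ beyond their spread there, since *Pdk4* had 39.3 and 62.4 RPKM and *Trim63* had 56.1 and 57.8. In miR-128OE hearts *Depp1* was highest at a mean of 110.0 RPKM, above *Trim63* (78.8) and *Pdk4* (72.3). *Zbtb16* reached the level of *Klf15* and *Fkbp5*, with means of 3.40, 3.48 and 3.40 RPKM, and these 3 overlapped between libraries. *Foxo3* was lowest in both groups, and the level of *Foxo1* was close to 10 times that of *Foxo3* in each.

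Other genes moved with these values. Of 19 tested immediate-early genes, which nerve or growth signals and handling of tissue induce within minutes, 15 were higher, 0 lower, and the median log2 fold change was 1.09. Their summed level was 6413 and 6041 normalized counts in Ctrl and 20590 and 20870 in miR-128OE hearts, with *Fos* (3.13, adjusted p = 1.36e-06, edgeR), *Ccn1* (3.12, adjusted p = 5.75e-07) and *Nr4a1* (2.77, adjusted p = 4.04e-07) the highest. *Sgk1* is itself induced within minutes by serum. Clock genes, which glucocorticoids can reset, gave 5 higher and 4 lower of 18 tested, with a median of 0.10. *Bhlhe40* (0.90, adjusted p = 0.000578, edgeR), *Cry2* (0.57, adjusted p = 0.00273) and *Cry1* (0.57, adjusted p = 0.0287) were higher, and *Ciart* (-1.0, adjusted p = 0.00711), *Per3* (-0.58, adjusted p = 0.00157) and *Nr1d2* (-0.50, adjusted p = 0.00174) were lower. *Cry1* lost its call without WH8 (0.37), WH9 (0.51) or WH10 (0.66) and with total counts (0.46), and *Ciart* without WH9 (-0.80). The hour at which the hearts were taken is not given in the sources used here, and the part of handling and of the hour in the values of the 10 genes was not tested.

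The hearts carried the defining genes of cardiomyocytes in all libraries, with summed levels of 554900 and 603300 normalized counts over 10 markers in Ctrl and 670600 and 662300 in miR-128OE hearts, and 4 of the 10 were higher and 2 lower. Fat markers, which matter here because fat expresses *Pdk4*, *Klf15* and *Pck1*, summed to 508 and 479 normalized counts in Ctrl and 994 and 770 in miR-128OE hearts. Of 6 tested fat markers, 3 were higher and 0 were lower, with *Ucp1* at 56, 3, 253 and 189 counts and *Adipoq* at 16, 13, 34 and 45 counts in WH7, WH8, WH9 and WH10, while *Lep* was at 0, 0, 1 and 6. Most of each sum came from *Cidea*, at 336, 250, 536 and 485 counts. The other 3 tested markers were not called, among them *Cidec* (log2 fold change 0.18, adjusted p = 0.777, edgeR). *Cfd* had 4, 3, 2 and 6 counts and *Elovl3* had 1 in every library. Erythroid markers summed to 527 and 377 in Ctrl and 924 and 842 in miR-128OE hearts, with 1 of 3 tested genes higher and the globin genes *Hba-a1*, *Hba-a2*, *Hbb-bs* and *Hbb-bt* listed at 0 in every library. Skeletal muscle markers, which matter for *Trim63* and *Fbxo32*, summed to 119 and 79.2 in Ctrl and 60.4 and 60.6 in miR-128OE hearts, with 0 of 3 tested genes higher and 1 lower. The part of these cell types in the values of the 10 genes was not tested.

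Other cell types gave mixed counts. Of 8 tested fibroblast markers 1 was higher and 0 were lower, of 8 endothelial markers 2 were higher and 2 lower, of 8 smooth muscle and pericyte markers 3 were higher and 1 lower, of 10 leukocyte markers 1 was higher and 0 were lower, and of 6 nerve markers 1 was higher and 1 lower. For 7 atrial markers 0 were called in either direction, though the summed level of WH8 was far below and that of WH7 above the miR-128OE libraries. Without WH8 the log2 fold changes of the 10 genes were 1.96 for *Depp1*, 1.77 for *Zbtb16*, 1.14 for *Sgk1*, 0.99 for *Pdk4*, 0.60 for *Trim63*, 0.59 for *Klf15*, 0.32 for *Foxo3*, -0.07 for *Foxo1*, -0.07 for *Fkbp5* and -0.34 for *Fbxo32*. Without WH7 they were, in the same order, 1.90, 1.98, 1.15, 0.31, 0.54, 0.83, 0.06, 0.02, -0.16 and -0.50. In both cases *Pdk4* was the only gene among those called with all libraries whose value moved by more than 1.5 times.

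**Figure D4:**
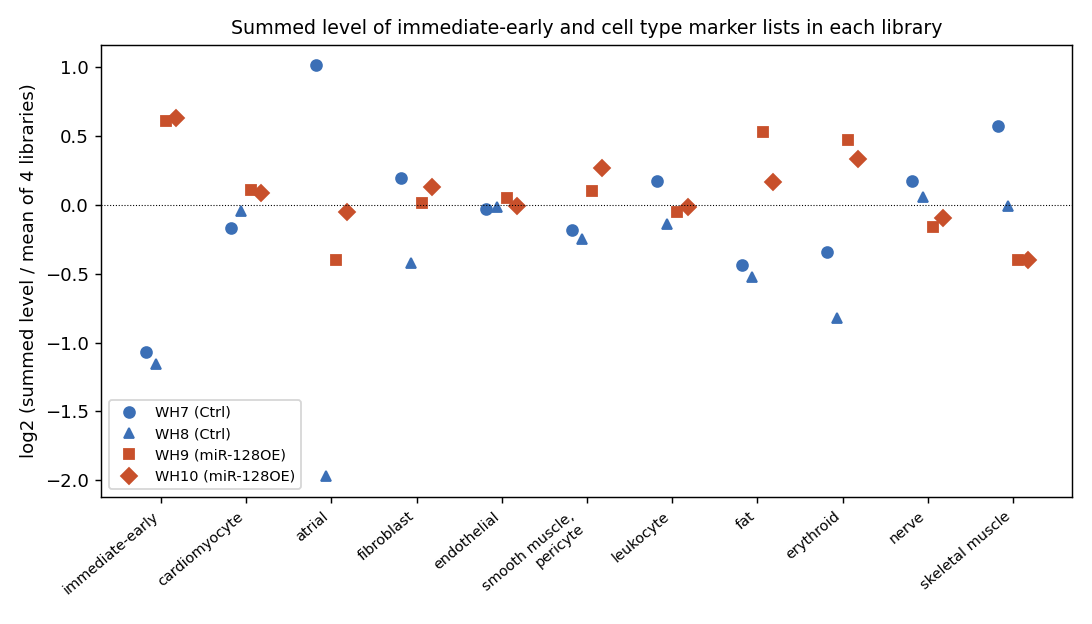
Summed normalized counts of immediate-early genes and of 10 lists of cell type markers in each library, as log2 of the sum over the mean of the 4 libraries (vertical axis). Immediate-early, fat and erythroid sums are higher in both miR-128OE libraries than in both Ctrl libraries. By smaller steps, so are the cardiomyocyte, endothelial, and smooth muscle and pericyte sums, while skeletal muscle and nerve sums are lower in both. The atrial sum of WH8 lies far below that of the other 3 libraries, and that of WH7 is the highest.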

How the data were processed

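RNA-seq of P7 mouse hearts gave 2 Ctrl and 2 miR-128OE libraries. After quality filtering, the authors mapped reads to mm10 by TopHat2 and counted those on known genes with Bioconductor packages. They deposited raw counts, 1 column a library. Gene models, strand and the treatment of multiply mapping reads are not given in the sources used here, so counts of overlapping genes and close paralogs are uncertain. Of 24454 Entrez identifiers, 24381 were paired with a symbol (RefSeq of GRCm38.p6, then GENCODE M21).

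The study's methods name the negative binomial model of edgeR. Here counts were fitted by edgeR (version 4.0.16, R version 4.3.3), and the settings were chosen for this work, namely filterByExpr, TMM factors, its quasi-likelihood test and Benjamini-Hochberg adjustment over 14266 genes, at a threshold of 0.05. The fit used all 4 libraries. It was also run on simulated counts, in which far fewer genes changed than were called here and by fixed folds. That run does not vouch for the calls given here. Counts were normalized by TMM to the mean effective size of the libraries. Standard errors were taken as log2 fold change over the square root of F, and intervals used 9.44 degrees of freedom. The labels do not say that libraries came from separate litters or mice, so p-values measure only the spread between these libraries.

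The 10 genes, the 12 pathway lists and the 10 marker lists were chosen with earlier results of these data known. Genes are named by a rule: the 10 genes, all FoxO, steroid receptor and 11-beta dehydrogenase genes, chosen insulin, PDK and MuRF genes, *Tsc22d3*, *Per1* and *Klf9*, and in each list, of genes past the threshold whose groups do not overlap and whose average log2 CPM is 1 or more, the 3 higher and the 3 lower ones that changed most. A gene under this rule is not reported here. Marker genes, precursor genes and *Rassf4* named beside them were chosen after their values were seen. Alternatives were other size factors, the likelihood ratio and DESeq2 1.42.0 tests, other filters, a 1.5-fold requirement, a loess offset (span 0.5) for GC content and length, and each library left out. Sequences were read with Python 3.11.15, in lower case with the marked part in capitals.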

Additional observations from a re-analysis of the deposited data

How the results depend on the processing

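With 2 libraries a group, calls rested on few degrees of freedom, and leaving out a miR-128OE library moved most counts. Of the 27 counts of genes given in the report, 8 stayed within 1.5 times their value without WH9 and 13 without WH10, against 23 without WH7, 25 without WH8, and 27 with upper-quartile factors, the likelihood ratio test or a stricter filter. No value turned its direction while called. No paired analysis was possible because the labels give the libraries no shared numbers. The 10 genes were selected on their fold changes between these same libraries. Which of them stayed called is therefore a description, and nothing is read from it. Over single libraries left out, genes higher ran from 897 to 2654 and genes lower from 667 to 2384, and 4 to 7 of the 10 genes were called, with *Depp1*, *Zbtb16* and *Sgk1* among them each time.

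Counts of list genes over single libraries left out ran as follows, higher and then lower. They were 3 to 5 and 1 to 4 for insulin, PI3K and AKT genes, 1 to 8 and 2 to 4 for FoxO partners, 6 to 17 and 0 to 9 for FoxO targets, 1 to 2 and 1 to 5 for receptor and chaperone genes, 10 to 19 and 3 to 9 for glucocorticoid targets, and 4 to 6 and 1 to 3 for KLF15 targets. They were 4 to 9 and 0 to 1 for ubiquitin ligases, 6 to 8 and 0 to 1 for pyruvate dehydrogenase genes, 4 to 8 and 0 to 2 for autophagy genes, and 2 to 5 and 2 to 6 for clock genes.

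With the scaling by total counts the median of all genes was -0.11, and 1611 genes were higher and 2948 lower, so that 35.3% of calls were higher against 52.3% with TMM factors. Calls in lists were then 5 lower of insulin, PI3K and AKT genes, 11 lower FoxO targets, 5 higher ubiquitin ligases, 1 lower pyruvate dehydrogenase gene, 5 higher and 2 lower autophagy genes, and 2 higher clock genes. The DESeq2 test called 1711 genes higher and 1403 lower, with 2 lower FoxO targets, 1 lower KLF15 target, 5 higher and 1 lower ubiquitin ligases, 5 higher autophagy genes and 3 higher clock genes. The offset for GC content and length gave 3 lower FoxO targets, 2 lower receptor and chaperone genes and 1 lower ubiquitin ligase, and 1 lower ubiquitin ligase was also called with DESeq2 size factors and without a filter. Requiring a 1.5-fold change left 935 genes higher and 1187 lower. It left 2 higher and 0 lower of insulin, PI3K and AKT genes, 1 and 2 FoxO partners, 8 and 0 FoxO targets, 0 and 1 receptor and chaperone genes, 11 higher glucocorticoid targets, 3 and 0 ubiquitin ligases, 2 and 0 autophagy genes, and 1 and 1 clock genes. The cause of these moves was not tested, beyond fewer samples or a stricter rule.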
